A study of Mesocricetus auratus with 8 samples.

Results

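The subject is a set of 9 genes through which heart muscle cells cycle calcium between the cytosol and the sarcoplasmic reticulum, the calcium store of the cell. They were chosen by name: the pump Atp2a2, its inhibitor Pln, the release channel Ryr2 with its partners Casq2, Trdn, Asph, Hrc and Jph2, and the sodium-calcium exchanger Slc8a1. Rows under their own symbol were present for 7 of the 9, of 20360 rows in all. Trdn was read from LOC106023025, the identifier whose gene number RefSeq (assembly BCM_Maur_2.0) pairs with Trdn, and no row was paired with Jph2, which is not analysed here. All 8 genes with a row passed the filter on low values, a mean count of 50 or more, as did 10909 genes of the table.

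The data are polyA RNA sequencing counts from the hearts of 8 female golden hamsters (Mesocricetus auratus) aged 25 weeks, 1 library each. The study's design names wild-type animals and animals with Myh6 loss of heterozygosity, Myh6 being the gene of alpha cardiac myosin heavy chain, sampled before the onset of dilated cardiomyopathy (DCM). The labels give each animal a code only and no genotype, and they do not say how the Myh6 allele was made. No genotypes were therefore compared, no library is a replicate of another, and values are given library by library. Library totals ran from 13608500 to 15255764 counts, and levels below are CPM, counts scaled to library size after the trimmed mean of M-values (TMM) had adjusted the totals. The 95% intervals are exact Poisson intervals and cover counting error only.

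In each heartbeat, calcium entering through the cell membrane opens Ryr2 channels, and the calcium released from the store starts contraction. Relaxation follows when the pump encoded by Atp2a2 (SERCA2a) returns calcium to the store and the exchanger encoded by Slc8a1 carries the rest out of the cell. Phospholamban, the product of Pln, holds the pump back until it is phosphorylated. Calsequestrin (Casq2) buffers calcium inside the store beside the release channel, and triadin (Trdn) and junctin (a product of Asph) anchor it there. The histidine-rich calcium binding protein (Hrc) is a further luminal buffer, and junctophilin 2 (Jph2) holds the store close to the cell membrane.

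The defining markers of ventricular muscle were abundant in every library, as the heart label states. The summed level of 10 ventricular markers, Mb and Myl2 the highest, ran from 69309 CPM in M5F12 to 87465 CPM in M5F7. Of 8 atrial markers, Bmp10 was at a count of 0 in all 8 libraries and Myl7 had no paired row. The summed level of the 7 with a row was 1444 to 2609 CPM. Pam, at 1347 to 2066 CPM, and Nppa, at 53.2 to 971 CPM, carried nearly all of it. Myl4 reached at most 7.51 CPM and Sln at most 0.956 CPM. Of 10 skeletal muscle markers, Ckm, which heart muscle also expresses, carried nearly all of the summed 1921 to 2675 CPM and Myog was at a count of 0 in every library. Library M5F5 stood apart for 6 liver markers, led by Alb, with 120 CPM in sum against 0.205 to 1.58 CPM in the other 7. Because heart tissue was sequenced rather than separated cells, fewer muscle cells and less RNA per muscle cell cannot be told apart.

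By highest over lowest library, the pump and the exchanger had the widest spread of the set and the release channel came next. The inhibitor and the luminal buffers had the narrowest spread. Span here means the level of the highest library over that of the lowest. Atp2a2 spanned 1.52-fold, Slc8a1 1.56-fold and Ryr2 1.45-fold, while Casq2, Hrc and Pln spanned 1.21-fold, 1.19-fold and 1.16-fold. The order of the widest genes depended on single libraries. From the second-highest to the second-lowest library Ryr2 was widest, at 1.39-fold, with Slc8a1 at 1.36-fold and Atp2a2 at 1.27-fold. Differences beyond counting error were found for 7 of the 8 genes, the exception being Trdn (chi-square test of the 8 counts against equal relative abundance, Benjamini-Hochberg adjusted over 10909 genes, threshold 0.05). This test called 86.4% of all genes, and 98.3% of the 2612 abundant ones, those with a mean count of 1000 or more, so the 7 calls do not set the members apart. A span of at least 1.5-fold together with that test was met by 2 of the 8, against 42.2% of all genes and 26.3% of abundant genes. No member reached 2-fold (0 of 8), against 13.9% and 7.16%. The median log2 span of the 8 was 0.32, beside 0.54 over all genes tested and 0.41 over the abundant ones.

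**Figure D1:**
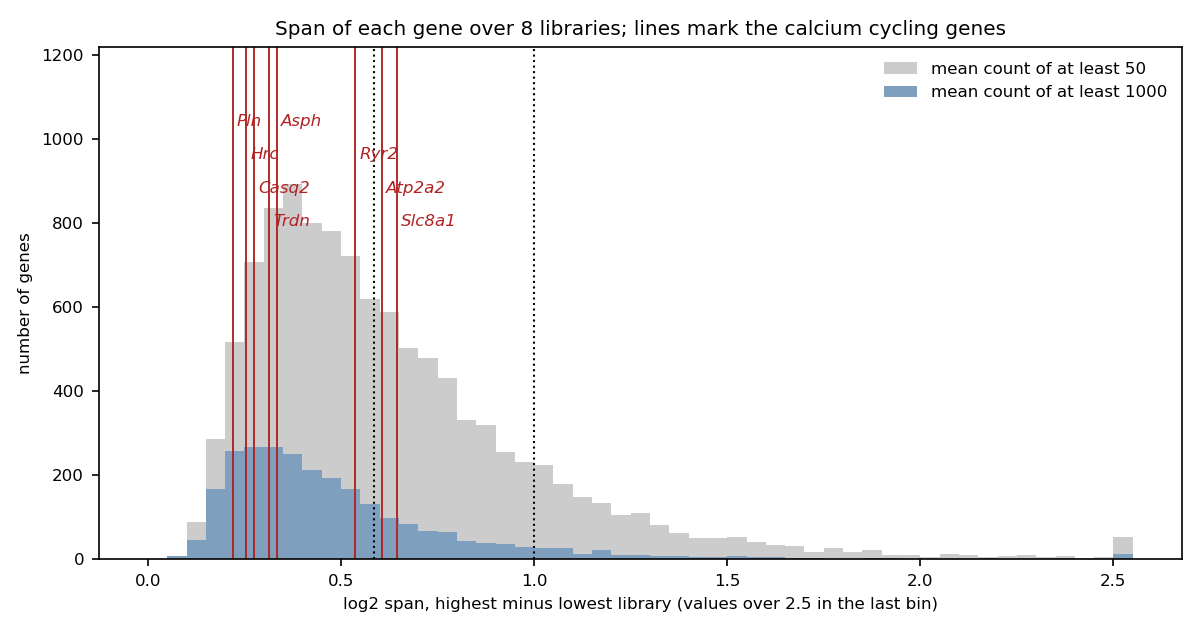
Histogram of the log2 span of each gene over the 8 libraries, highest minus lowest, for genes with a mean count of 50 or more (grey) and 1000 or more (blue), with dotted lines at 1.5-fold and 2-fold. Red lines mark the 8 calcium cycling genes: Pln lies lowest at 0.22, and Atp2a2 at 0.61 and Slc8a1 at 0.64 lie past the 1.5-fold line.

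Atp2a2 was the gene with the fifth highest mean level in the table, with 144016 to 225947 counts a library. It was at 15664 CPM in M5F12 (95% interval 15600 to 15729), 14385 in M5F19, 14334 in M5F22 and 13673 in M5F16. The other 4 libraries were lower, with 11908 CPM in M5F56, 11863 in M5F7, 11296 in M5F55 and 10284 in M5F5 (10230 to 10337). The widest step in this order lay between M5F16 and M5F56 and took up 0.328 of the log2 span, so the libraries did not part into separate clusters by the limit used here, 0.5 of the span. M5F56 and M5F7 did not differ beyond their counting intervals, and neither did M5F19 and M5F22. Of all genes tested, 58.3% had a narrower span than Atp2a2, and 75.9% of the abundant ones. With M5F5 left out, the library that held the liver transcripts, the span of Atp2a2 was 1.39-fold, and with M5F12 left out it was 1.40-fold, both under 1.5-fold. Scaled to the summed ventricular markers, Atp2a2 spanned 1.90-fold. The ventricular markers were lowest in M5F12, the library where Atp2a2 was highest, and the part of either fact in the span of Atp2a2 was not tested.

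Pln was nearly level across the same hearts. It ran from 5994 CPM in M5F55 to 6977 CPM in M5F22, with 6719 CPM in M5F5, 6582 in M5F56, 6545 in M5F7, 6478 in M5F19, 6184 in M5F16 and 6030 in M5F12. M5F12, the highest library for the pump, was the second lowest for its inhibitor, and M5F5, the lowest for the pump, was the second highest. This opposition depended on the scaling, since M5F12 was the highest library for both genes when counts were scaled to the summed ventricular markers. Only 5.04% of all genes tested, and 11.8% of the abundant ones, had a narrower span than Pln.

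Ryr2 was at 1636 CPM in M5F19 (95% interval 1616 to 1657), 1626 in M5F16, 1466 in M5F22 and 1336 in M5F12. It was at 1217 CPM in M5F55, 1200 in M5F56, 1172 in M5F7 and 1128 in M5F5 (1110 to 1145). M5F19 and M5F16 lay above the rest and overlapped each other in their counting intervals, as M5F55 did with M5F56 and M5F56 with M5F7. M5F22, M5F12 and M5F5 overlapped no other library. Of all genes tested, 50.1% had a narrower span than Ryr2. Ryr2 has a very long transcript, and a trend with transcript length between libraries was not tested, since no transcript lengths were used here.

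Slc8a1, which removes calcium from the cell, was at 1785 CPM in M5F22 (95% interval 1763 to 1806), 1776 in M5F16, 1659 in M5F19 and 1608 in M5F12. The lower values were 1468 CPM in M5F56, 1313 in M5F55, 1308 in M5F5 and 1142 in M5F7 (1124 to 1159). The lowest library thus differed between genes, being M5F7 for the exchanger and M5F5 for the pump and the release channel. Without M5F7 the span of Slc8a1 was 1.36-fold, under the 1.5-fold limit. M5F7 also had the highest summed level of 8 endothelial markers, 1726 CPM against 1052 to 1501 CPM in the other 7. Its summed level of 10 ventricular markers was the highest as well, 87465 CPM against 69309 CPM in M5F12, the lowest. The part of either in the low Slc8a1 value was not tested.

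The luminal buffers had narrower spans. Casq2 was at 3027 CPM in M5F22 and 3022 in M5F19 and between 2501 and 2693 CPM in the other 6. Those 2 libraries formed a separate upper cluster, the step below them taking 0.602 of the log2 span. Hrc had a median of 2064 CPM, with 1872 CPM in M5F56 at one end and 2234 CPM in M5F22 at the other. M5F22 was the highest library and M5F56 the lowest for both buffers, although for Casq2 the counting interval of M5F22 overlapped that of M5F19, and that of M5F56 those of M5F7 and M5F12. For Hrc M5F56 overlapped M5F12. Scaled to the summed ventricular markers, both buffers were lowest in M5F7 and neither was highest in M5F22. Both passed the chi-square threshold (adjusted p = 3.0e-135 for Hrc, and for Casq2 too small for the software to represent).

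Of the genes that anchor calsequestrin, Asph was at 304 CPM in M5F16, 309 in M5F22, 311 in M5F19 and 281 in M5F12, against 247 to 255 CPM in M5F5, M5F7, M5F55 and M5F56. The upper 4 libraries did not overlap the lower 4 in their counting intervals, and the step between them took 0.421 of the log2 span (chi-square adjusted p = 4.7e-56). Asph yields several proteins besides junctin, among them an aspartyl hydroxylase, and these counts do not separate them. The row paired with Trdn held only 111 to 149 counts a library, 7.93 CPM in M5F5 to 9.87 CPM in M5F16. Differences between libraries did not pass the chi-square threshold (adjusted p = 0.767), but did when counts were scaled to the summed ventricular markers (adjusted p = 0.0164). Whether that row covers the whole of the triadin transcript is not given in the sources used here.

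**Figure D2:**
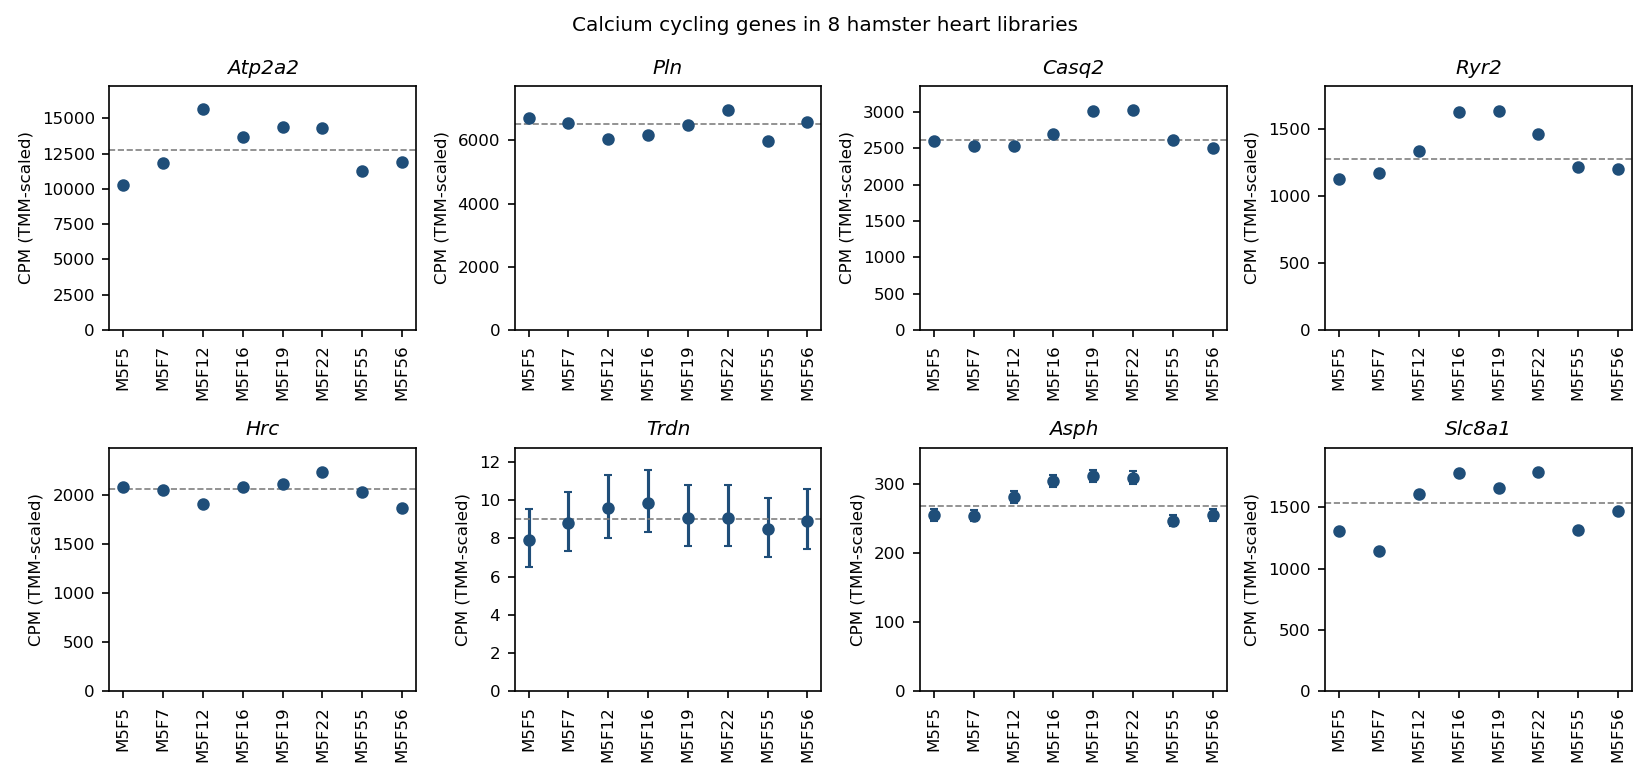
Level of each of the 8 genes in each library, as TMM-scaled CPM on axes that start at 0, with exact 95% Poisson intervals (most are smaller than the point) and a dashed line at the median of the 8 libraries. Atp2a2, Ryr2, Asph and Slc8a1 lie above their median in M5F12, M5F16, M5F19 and M5F22, whereas Pln, between 5994 and 6977 CPM, hardly leaves it.

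Each library held the extremes of the set unevenly. M5F22 held the highest value of 4 of the 8 genes, M5F19 of 2, and M5F12 and M5F16 of 1 each. M5F5 held the lowest of 3, M5F55 and M5F56 of 2 each and M5F7 of 1. Over all genes tested M5F22 held the highest value of 11.6% and M5F5 the lowest of 13.3%. The 4 libraries with the most Atp2a2 were also the 4 highest for Ryr2, Slc8a1, Asph and Trdn, 4 of the other 7 members, and this was noticed after the values were seen. For Trdn the libraries did not differ beyond counting error (chi-square adjusted p = 0.767), so its order and its highest and lowest library were not resolved. The same 4 libraries were highest for 10.5% of all genes tested and 19% of abundant genes. They were the 4 lowest for none of the other 7, against 7.19% of all genes tested. Atp2a2 was highest in M5F12 and lowest in M5F5 under each of the 5 scalings between libraries that were tried, whereas each of the other 7 had another highest library under at least 1 of them.

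Ratios of 2 genes within a library need no scaling between libraries. They were read only as differences between libraries, because CPM is not corrected for transcript length. The ratio of the pump to its inhibitor, Atp2a2 to Pln, spanned 1.70-fold (95% counting interval 1.68 to 1.72), more than either gene alone. It was 1.32 times its median over the 8 libraries in M5F12, 1.13 times in M5F19, slightly less in M5F16 and 1.04 times in M5F22. It was 0.958 times the median in M5F55, 0.921 times in M5F7, 0.919 times in M5F56 and 0.778 times in M5F5. M5F12 and M5F5 lay at the ends, and the ratio spanned 1.45-fold without M5F12 and 1.44-fold without M5F5.

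The other ratios spanned less. Pump to exchanger, Atp2a2 to Slc8a1, spanned 1.35-fold (1.32 to 1.38), from 0.921 times its median in M5F16 to 1.24 times in M5F7. Pump to release channel, Atp2a2 to Ryr2, spanned 1.39-fold (1.37 to 1.42), from 0.883 times the median in M5F16 to 1.23 times in M5F12. Without M5F12 this ratio spanned 1.20-fold. Buffer to release channel, Casq2 to Ryr2, spanned 1.40-fold (1.36 to 1.43), with M5F16 lowest, at 0.798 times its median, and M5F5 highest. The ratio of Trdn to Ryr2 rested on few Trdn counts, and its span of 1.35-fold had an interval of 1.06 to 1.72. The intervals of all ratios above are for the highest against the lowest library. Those libraries were picked from the values themselves, so the intervals do not test whether libraries differ.

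**Figure D3:**
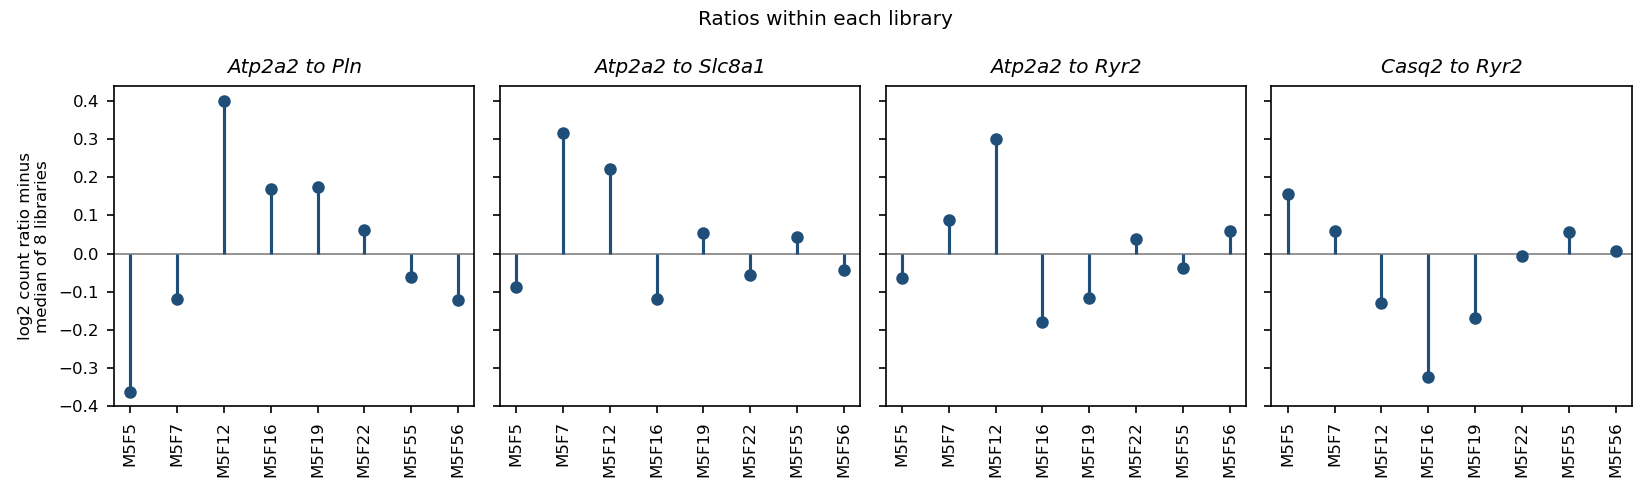
Log2 ratio of the counts of 2 genes within each library, minus the median of that ratio over the 8 libraries. Atp2a2 to Pln runs from -0.36 in M5F5 to 0.40 in M5F12, and the other 3 ratios stay between -0.32 and 0.31.

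Whether 2 genes followed each other over the 8 libraries was examined for 8 pairs. The pair with Jph2 could not be computed, and no coefficient is given for Ryr2 with Casq2 or Casq2 with Hrc, because the libraries parted into separate clusters for Casq2. None of the other 5 passed the threshold after adjustment over the 5 (0 of 5 by Pearson's r and 0 of 5 by Spearman's rho), and 3 had an unadjusted p below 0.05 by r and 2 by rho. Atp2a2 with Slc8a1 had r = 0.76 (exact permutation p = 0.0322, adjusted p = 0.0593) and rho = 0.71 (p = 0.0576, adjusted p = 0.0960). Atp2a2 with Ryr2 had r = 0.76 (exact permutation p = 0.0356, adjusted p = 0.0593) and rho = 0.76 (p = 0.0368, adjusted p = 0.0919). Their r was 0.85 and 0.91 without M5F5 and M5F12, which lay farthest from the median of Atp2a2. Ryr2 with Trdn had r = 0.74 (exact permutation p = 0.0344, adjusted p = 0.0593) and rho = 0.76 (p = 0.0368, adjusted p = 0.0919), with r = 0.71 without M5F16 and M5F19.

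Pump and inhibitor showed no relation past the threshold, and the sign of r changed with the scaling. Atp2a2 with Pln had r = -0.17 (exact permutation p = 0.684, adjusted p = 0.684) and rho = -0.17 (p = 0.703, adjusted p = 0.703), with r = 0.47 without M5F5 and M5F12. Scaled to the summed ventricular markers, r was 0.72 (exact permutation test, adjusted p = 0.0513). Nppa, the gene of atrial natriuretic peptide and a marker of strained ventricular muscle, was at 971 CPM in M5F5, where Atp2a2 was lowest. It was at 53.2 CPM in M5F12, where Atp2a2 was highest. It was as low in M5F7, at 53.5 CPM, though M5F7 was among the lower libraries for Atp2a2, at 11863 CPM. Over all 8 libraries Atp2a2 with Nppa had r = -0.52 (exact permutation p = 0.181, adjusted p = 0.226) and rho = -0.55 (p = 0.171, adjusted p = 0.214). Without M5F5 and M5F12 r was 0.22, so the negative sign rests on these 2 libraries. Without M5F7 alone r was -0.73.

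**Figure D4:**
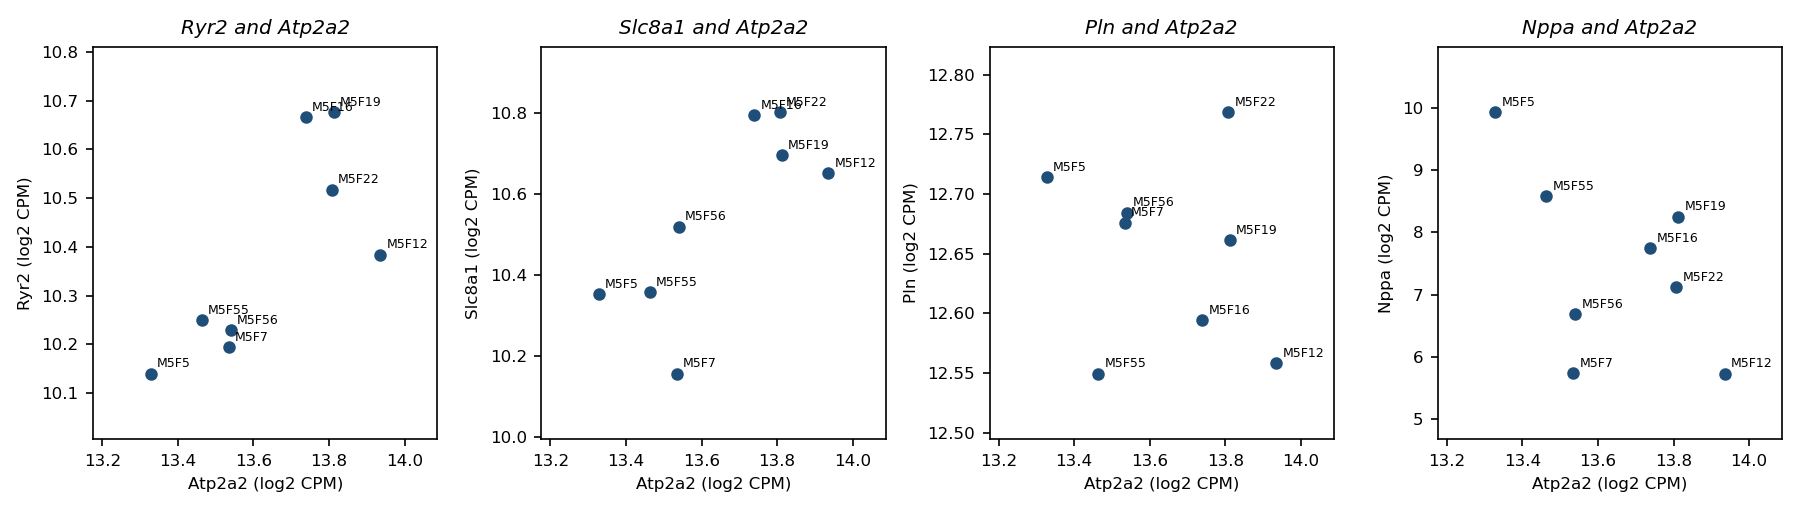
Log2 CPM of Ryr2, Slc8a1, Pln and Nppa against that of Atp2a2, 1 point per library. Ryr2 and Slc8a1 are higher in the 4 libraries with the most Atp2a2, Pln follows it less (r = -0.17), and for Nppa the extremes M5F5 and M5F12 set the slope (r = -0.52 with them and 0.22 without).

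By root mean square difference of centred log2 CPM over the 8 libraries, the 3 named genes whose pattern lay closest to Atp2a2 included Eps15, an adaptor of endocytosis, and Atp2c1, the calcium and manganese pump of the Golgi. Their differences were 0.063 and 0.074, where Atp2a2 itself deviated from its mean by 0.19. For Ryr2 they were Tns1, which encodes the adhesion protein tensin 1, Med13, of the Mediator complex, and Taf2, of a general transcription factor (0.054, 0.054 and 0.056, with 0.20 for Ryr2 itself). For Slc8a1 they were Adgra3, an adhesion receptor, Fyttd1, an mRNA export factor, and Vps41, of lysosomal trafficking (0.046, 0.052 and 0.059, with 0.22 for Slc8a1 itself).

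Other genes that act on calcium cycling were taken from 6 lists of 75 genes, of which 74 had a row and 61 passed the filter. All 61 passed the chi-square threshold, as did 86.4% of all genes tested and 98.3% of abundant genes. Of the 61, 26 spanned at least 1.5-fold and 6 at least 2-fold. As shares of the 61, 42.6% spanned 1.5-fold, near the 42.2% of all genes and beside 26.3% of abundant genes. The 2-fold limit, met by 6 of the 61, was met by 13.9% of all genes and 7.16% of abundant genes. Not all of the 61 were abundant by the limit used here, a mean count of 1000 or more. Of 12 measured regulators of the pump, 5 (41.7%) spanned 1.5-fold and 3 spanned 2-fold. Pde3a, a phosphodiesterase that limits cyclic AMP near the pump, spanned 3.08-fold, with 33.4 CPM in M5F7 and 37.9 CPM in M5F5 against 59.3 to 103 CPM in the other 6. Prkacb, a catalytic subunit of protein kinase A, which phosphorylates phospholamban, spanned 2.03-fold, with 70.9 CPM in M5F7 and 76.9 CPM in M5F5 as its lowest values. Camk2d, the main cardiac calmodulin-dependent kinase, spanned 2.05-fold, from 73.8 CPM in M5F5 to 152 CPM in M5F22.

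Among 14 measured regulators of the release channel and other release channels, 7 spanned 1.5-fold, a share of 50% beside 42.2% of all genes, and 2 spanned 2-fold, near the 13.9% of all genes. Akap6, which anchors protein kinase A near Ryr2, was at 116 CPM in M5F7, 120 in M5F5 and 150 in M5F56, then 230 CPM in M5F55 and 289 to 346 CPM in the other 4. Sri, whose product sorcin restrains Ryr2, was instead highest in M5F5 and M5F7, with 35.8 CPM in M5F5 and 33.1 CPM in M5F7 and its lowest value of 17.5 CPM in M5F19. Itpr3, an inositol trisphosphate receptor, likewise had most in M5F7 (33.2 CPM) and least in M5F12 (17.1 CPM). Sri and Itpr3 are expressed in many cell types, and endothelial markers were likewise highest in M5F7 and M5F5 (1726 and 1501 CPM in sum). The part of this in either result was not tested.

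Of 11 measured genes of the junctional membrane, 4 spanned 1.5-fold, a share of 36.4% beside 42.2% of all genes, and 0 spanned 2-fold. Jph1, a relative of Jph2, spanned 1.90-fold, from 108 CPM in M5F5 and 116 in M5F7 up to 206 CPM in M5F22. Cacna1c, the pore of the L-type calcium channel that triggers Ryr2, ran from 245 CPM in M5F5 to 394 CPM in M5F16. Mtm1, a lipid phosphatase of the tubule system, spanned 1.53-fold. Of 8 luminal buffers and folding genes, 4 (50%) spanned 1.5-fold. Sel1l, of the degradation machinery of the endoplasmic reticulum, spanned 1.94-fold, Hspa5, its main chaperone, 1.87-fold and the buffer Calr 1.63-fold.

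Of 5 measured genes for other pumps and exchangers, Atp2b4 alone spanned 1.5-fold. Atp2b4, a calcium pump of the cell membrane, ran from 20.5 CPM in M5F12, the highest library for Atp2a2, to 36.0 CPM in M5F55. Slc8b1, the mitochondrial sodium-calcium exchanger, spanned 1.47-fold and Atp2c1 1.44-fold. Of 11 genes of store-operated and mitochondrial calcium entry, 5 spanned 1.5-fold, a share of 45.5% beside 42.2% of all genes. Orai3, a membrane calcium channel, spanned 2.19-fold, from M5F5 to M5F7, and Mcub, a subunit of the mitochondrial uniporter that lowers its activity, 1.82-fold at 2.77 to 5.07 CPM.

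The genes under the filter included forms best known from other muscle types. Sln, which encodes the pump inhibitor sarcolipin of atria, had 2 to 14 counts a library, at most 0.956 CPM. The skeletal muscle forms were also low, with 21 to 37 counts for Atp2a1, 4 to 14 for Casq1, at most 5 for Ryr1 and at most 6 for Jsrp1. At most 13 counts were found for Ryr3, 6 for Jph3, 11 for Jph4, 21 for Atp2b2 and 29 for Slc8a2. Slc8a3 had 15 to 84 counts, Ppp1r1a, an inhibitor of protein phosphatase 1, had 28 to 65, and Bin1, a shaper of the tubule membrane, had 24 to 54. Strit1, which encodes an activator of the pump, had no paired row. A count of 0 allows up to 0.199 to 0.214 CPM, 3 counts of a library.

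**Figure D5:**
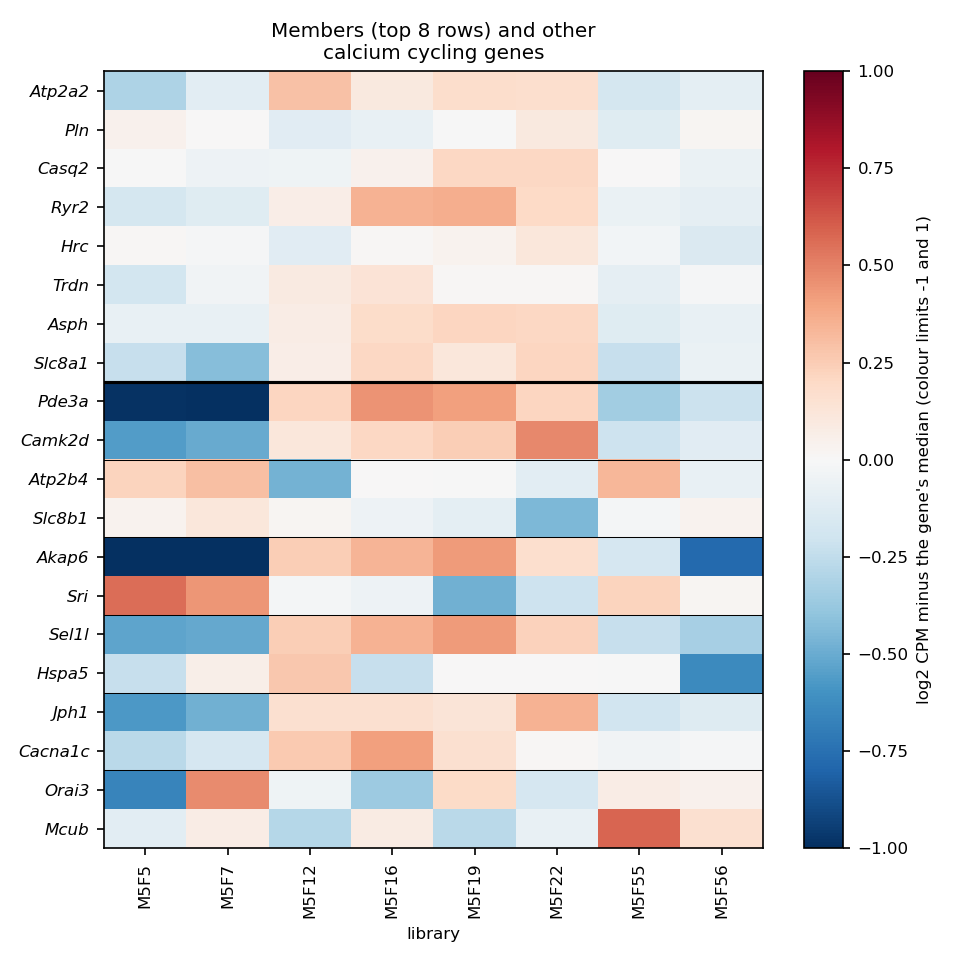
Log2 CPM minus the gene's median over the 8 libraries, for the 8 members (above the thick line) and the 2 genes with the widest span in each of 6 lists of other calcium cycling genes, with colours limited to -1 and 1. Red is above and blue below the median. Pde3a and Akap6 are at the blue limit in M5F5 and M5F7, where Sri is red.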

How the data were processed

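The deposited file is a table of counts, whole numbers per gene for 8 libraries, taken as not normalized. Per the submitters' processing notes, the tools were Bowtie2 2.2.5, HISAT2 2.0.4 and RSEM, each without a stated role. Genome build, annotation and strand handling: not given in the sources used here, so no coordinates are printed and overlapping or near-identical genes may share reads. Symbols without a row were looked up by gene number in the RefSeq table of BCM_Maur_2.0. No column was left unused (0).

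Counts were scaled with TMM (edgeR 4.0.16, R 4.3.3; factors 0.960 to 1.05), and log2 values used a prior count of 0.5. Library pairs differed beyond sampling noise (chi-square per gene 9.83 to 38.3 over 28 pairs). The labels put no library in a group, so edgeR's group tests were not applicable. Spans, chi-square calls (scipy 1.17.1), ratios and exact two-sided permutation tests are as defined beside the results. All but the ratios and their intervals were tested on simulated data. Nearest genes are the 3 closest with a symbol. A list of other genes is represented by its 3 widest spans and its members under the filter. A few genes these rules name are not reported here. A planned check of long transcripts was not run, because no transcript or protein lengths were used here.

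Alternatives were DESeq2 1.42.0 size factors, total counts, summed ventricular markers, TMM without the 10 most abundant genes, a prior count of 5, other count filters and each library left out in turn. The members and lists were chosen with earlier results of these data known. Each animal gave 1 library.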

Additional observations from a re-analysis of the deposited data

How the results depend on the processing

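No paired analysis was possible because the labels give no groups, so no replicate block could be fitted. Scaling to the summed ventricular markers, which moved the median gene of a library by up to 0.21 (log2), was the setting that changed most. The members spanning 1.5-fold were then 4 in place of 2, with Atp2a2 at 1.90-fold, Slc8a1 at 1.83-fold, Ryr2 at 1.67-fold and Trdn at a log2 span of 0.59, and Trdn passed the chi-square threshold (adjusted p = 0.0164). Then r was 0.72 for Atp2a2 with Pln (adjusted p = 0.0513, exact permutation test), a change of sign, 0.87 for Atp2a2 with Slc8a1, 0.86 for Atp2a2 with Ryr2 (both adjusted p = 0.00985, exact permutation test) and 0.82 for Ryr2 with Trdn (adjusted p = 0.0194, exact permutation test). This scaling gave the genes of a library a shared log2 shift, for the median gene 0.209 in M5F12 and -0.126 in M5F7. A shared shift can by itself raise r between 2 genes, and its part in these values was not tested. With DESeq2 size factors and total counts no r passed the threshold, and Atp2a2 spanned 1.54-fold and 1.59-fold. With no count filter 6942 genes spanned 1.5-fold and 3846 spanned 2-fold, 13 of these 3846 among the other calcium cycling genes. With a minimum mean count of 1000 they were 687 and 187 of 2612 genes tested (26.3% and 7.16%). Then 13 other calcium cycling genes spanned 1.5-fold, with fewer of them tested. Counts at these filters rest on different numbers of genes tested, so they are not read as changes in share.

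Leaving out 1 library gave 1 to 2 members at 1.5-fold, 1 of them without M5F5, M5F7 or M5F12. The log2 span of the ratio then ran from 0.52 to 0.76 for Atp2a2 to Pln, 0.34 to 0.43 for Atp2a2 to Slc8a1, 0.27 to 0.48 for Atp2a2 to Ryr2 and 0.33 to 0.48 for Casq2 to Ryr2. These ratio spans cannot widen with fewer libraries. Spans of single genes can, as the scaling was refitted, and without M5F55 Atp2a2 went from a log2 span of 0.607 to 0.614. For Atp2a2 with Pln r ran from -0.49 to 0.14 on leaving out 1 library, and no relation passed the adjusted threshold, with Atp2a2 with Ryr2 and Ryr2 with Trdn computed in 6 of the 8 cases, the libraries having parted into clusters in the other 2. Of the members, Trdn alone rested on as few as 111 to 149 counts a library.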

Other observations

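The order of the libraries found for Atp2a2, with M5F12, M5F16, M5F19 and M5F22 the 4 highest, depended on scaling for part of the set. With total counts it held for Ryr2, Slc8a1 and Asph but not for Trdn, whose libraries did not differ beyond counting error. Scaled to the summed ventricular markers it held for Casq2, Ryr2, Hrc, Asph and Slc8a1. The labels give these libraries no group, and none is assigned here.

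Of the 61 other calcium cycling genes, 16 had the same 4 highest libraries, among them Srl, Canx, Calr and Sel1l of the luminal list, Prkacb, Prkar2a, Pde3a, Camk2d and Camk2g of the pump regulators, and Jph1, Cacna1c and Akap6. As a share this was 26.2%, beside 10.5% of all genes tested and 19% of those with a mean count of 1000 or more. With total counts and with the summed ventricular markers it was 13 of the 61, beside 7.77% and 8.92% of all genes tested. For 4 of the 61 (Itpr2, Itpr3, Sri and Vdac2) those libraries were the 4 lowest, a share of 6.56% beside 7.19%. Of 8 endothelial markers, 5 had them as the 4 lowest, but Vwf, Pecam1 and Flt1 did not. Vwf was highest in M5F12, at 186 CPM, and Pecam1 was second highest there, at 209 CPM. The summed endothelial level was 1052 to 1160 CPM in the 4 libraries with the most Atp2a2 and 1250 to 1726 CPM in the other 4. The part of cell mix in the order of Atp2a2 was not tested.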
